A study of Mus musculus with 12 samples.

Results

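Global gene expression was compared between the clone series of Aid-disrupted (Aid-/-) mouse iPS cells. The members were the 6 clones that the labels give as Aid disrupted, 979F1, 979F2 and 979F3 (979F below) against 981E1, 981E4 and 981E5 (981E1/4/5 below), out of 12 clones in all, and the series of each clone was read from its name. All 12 clones carried a Nanog-GFP reporter, were labelled male and of the mixed strain background "mix (C57BL6, DBA,129S4)", and were cultured to passage 6 on gelatin with LIF and 2 µg/mL puromycin. The remaining 6 clones, 979B1, 979B3, 979B4, 967B2, 967B4 and 967B6, had wild-type Aid and formed the series 979B and 967B. By the study's methods the clones were grown from colonies of mouse embryonic fibroblasts (MEFs) that received retroviral Oct3/4, Sox2, Klf4 and c-Myc. The colonies were picked for Nanog-GFP fluorescence and passaged on feeder cells before the passages on gelatin. Each clone was measured on 1 array. The comparison asked how far clones of the same genotype differ when they belong to different series. The labels do not say whether the clones of a series came from the same embryo or dish, so the p-values measure the spread between these clones and not the spread between repeated reprogramming experiments.

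An iPS cell clone is a line expanded from a single reprogrammed colony, and it carries the genome of the fibroblast it came from together with its own viral insertions. In a mixed strain background, embryos differ in which strain's alleles they inherit. Several of the genes below are immediate-early genes, which are switched on within minutes by serum, growth factors or adhesion without new protein synthesis. Many of them are bound by serum response factor (SRF) at a short AT-rich element named the CArG box.

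Sequences upstream of 4 genes that differed are shown because the results return to them, as RefSeq gives them on GRCm38.p6. Egr2, the immediate-early gene with the largest measured difference, has several annotated starts, and a CArG box (in capitals) begins at position -72 from a start in each of these windows, at chr10:67537479-67537518 and chr10:67537782-67537821, both on the plus strand.
Egr2, upstream window 1: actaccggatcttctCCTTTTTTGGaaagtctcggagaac
Egr2, upstream window 2: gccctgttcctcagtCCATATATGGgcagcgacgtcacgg
Of 32851 promoters of 300 bases each, 1.63% held a CArG box on either strand. The promoter windows of Fos, Fosb, Jun and Ccn1, and that of a further start of Egr2, held none. A box outside these 300 bases would not have been seen, so these genes may have one further away. No result is given for Egr1 and Ccn2, which also differed. The window of Srf itself held 2 boxes. Slc30a1, the main zinc exporter of the cell surface, has in its promoter (chr1:191906723-191906759, plus strand) the core of a metal response element, in capitals. This core was searched as TGCACNC or TGCGCNC on both strands and was present in 25.7% of all promoters.
Slc30a1, upstream window: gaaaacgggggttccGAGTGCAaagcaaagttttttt
The last pair shows how alike the genes of a block on chromosome 14 are, over 150 bases of the promoter windows of Gm10413 (chr14:3394943-3395092, plus strand) and of Gm5797 (chr14:7332396-7332545, minus strand). The capital marks the 1 base at which these stretches differ, and over the whole promoter windows 290 of 300 bases were identical.
Gm10413: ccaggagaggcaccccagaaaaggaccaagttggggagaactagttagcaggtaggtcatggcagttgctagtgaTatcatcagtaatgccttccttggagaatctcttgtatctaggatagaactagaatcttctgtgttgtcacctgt
Gm5797: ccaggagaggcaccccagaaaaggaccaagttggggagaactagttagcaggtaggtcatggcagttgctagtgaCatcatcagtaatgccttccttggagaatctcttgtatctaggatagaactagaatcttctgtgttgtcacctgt

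The values below are log2 signals, the log2 of the background-corrected intensity of a probe minus the 75th percentile of its array. A value of 0 is therefore a signal at the 75th percentile, and 1 unit is a doubling. On the 6 arrays between 57.6% and 60.4% of the 55681 non-control probes were well above background, the 75th percentile lay between 426 and 509 intensity units, and 29619 probes were well above background on all 6. All 10 pluripotent cell markers were well above background on all 6 arrays, with summed linear signals (relative to the 75th percentile) of 765 to 803 in 979F and 865 to 1031 in 981E1/4/5. The summed signal of 10 fibroblast markers lay between 26.0 and 38.2 in 979F and between 15.9 and 29.9 in 981E1/4/5, and 9 of these genes were well above background on all 6 arrays, with Lum on none. The summed signal of 5 neural markers lay between 4.05 and 4.92 in 979F and between 2.57 and 3.70 in 981E1/4/5. Ttr (endoderm), Dcx and Neurog2 (neural cells) and Mesp1 and Mixl1 (mesoderm) were well above background on no array, and no marker of the lists checked was called. The 3 arrays of 979F lay on slide 2 and those of 981E1/4/5 on slide 3, so the slide and the series cannot be told apart. A pair of single clones stood apart by chromosome. Clone 979F3 had Y-linked signals near the floor, and clone 981E5 had chromosome 8 probes at a median of 0.35 above the wild-type mean, where the other 5 clones lay between -0.08 and -0.02.

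Clones of different series differed more than clones of the same series on average, but not in every pair. Among the 29619 probes detected on all 6 arrays, the share that differed over 2-fold was 0.716% to 1.34% between clones of 979F. It was 2.07% between 981E1 and 981E4, 5.07% between 981E4 and 981E5 and 5.67% between 981E1 and 981E5. Between the series it was 4.15% to 5.62% for pairs with 981E1 or 981E4, and 11.3% to 13.7% for pairs with 981E5. Clone 981E5 was thus about as far from 981E1 and 981E4 as these were from 979F. The median SD of a probe between clones was 0.11 in 979F and 0.21 in 981E1/4/5 on the log2 scale.

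**Figure D1:**
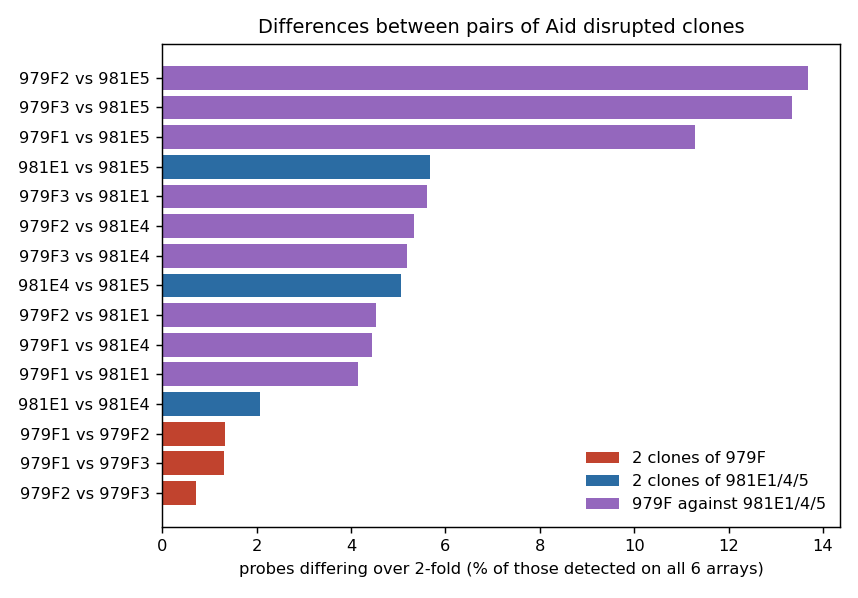
Share of probes that differed over 2-fold (%, x axis) for each of the 15 pairs of Aid-disrupted clones (y axis), out of the 29619 probes detected on all 6 arrays, with red bars for pairs within 979F, blue for pairs within 981E1/4/5 and purple for pairs between the series. The 3 pairs of 979F have the shortest bars, from 0.716% to 1.34%, and the 3 longest, from 11.3% to 13.7%, all include 981E5.

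The Euclidean distance over the log2 signals of 37323 detected probes was 155.7 on average between clones of different series and 125.9 between clones of the same series. The difference of 29.8 was the largest that any of the 20 ways of dividing the clones into 3 against 3 gave (p = 0.1, exact one-sided permutation test), and the design allows no smaller p. Without 981E5 the difference was 22.1, and it was at most 35.9 with any other clone left out. The mean distances within the series were 125.5 in 979F and 126.3 in 981E1/4/5 over all detected probes, and 50.4 and 78.1 over the probes detected on all 6 arrays.

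In limma's fit of the 6 clones, 424 probes differed between the series at an adjusted p under 0.05 and a fold change over 2, which is 0.761% of the 55681 probes tested. These probes are called here. Of them, 180 (0.323%) were higher in 979F and 244 (0.438%) were lower. The called probes represented 77 genes with a symbol that were higher and 122 that were lower, and 125 of them covered regions of long intergenic RNA (lincRNA). Without the limit on fold change 506 probes (0.909%) passed, 10473 (18.8%) had an unadjusted p under 0.05, and 4061 (7.29%) differed over 2-fold whatever their p. The median size of the called differences was 1.55 on the log2 scale, 112 of them were over 4-fold and 9 over 16-fold. For all 424 the values of the series did not overlap, as was also the case for 26.3% of all probes. Of the 424, 243 were among the probes detected on all 6 arrays (0.82% of these 29619). Another 105 were not detected above background in 1 of the series, 45 of them seen in 979F and 60 in 981E1/4/5. A further 49 were well above background on none of the 6 arrays, as were 18325 of all 55681 probes. In these cultures fewer expressing cells and less RNA per cell cannot be told apart.

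The number of calls rested on every clone. It was 27 without 979F1, 1 without 979F2, 1 without 979F3, 2 without 981E1, 1 without 981E4 and 94 without 981E5. As a check, it was 1 with 981E1 and 981E4 averaged. A legend of the study on viral insertions most simply lists matching clones in pairs, and these clones are not such a pair. Its wording can also be read as joining them. The paper states that clone independence was established from the pattern of insertions. In a fit over all 12 clones, whose spread is estimated from 4 series, 959 probes were called between 979F and 981E1/4/5, 308 of the 424 among them. Leaving out each of the 6 clones in turn from that fit gave 245 (without 979F3) to 1138 (without 981E1), with 515 without 979F1, 291 without 979F2, 717 without 981E4 and 360 without 981E5, and 146 of the 424 were called in all of these fits. Of the 52 called probes given by the rule for named genes, 30 were called in all of them and 8 in none. With normexp background correction, 145 probes were higher and 312 lower, and 161 of the 424 were among them.

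A group of immediate-early genes was lower in 979F. Of the 24 genes of the immediate-early and ERK feedback list, with 26 probes, 7 were called lower and none higher, so 26.9% of the list's probes were called, against 0.438% of all probes called lower. At an unadjusted p under 0.05 in limma's fit, 9 of the probes were lower and 3 higher. The median log2 difference of the list was -0.15, against 0.01 over all probes detected on an array, so most of the list lay near the centre of all probes. The summed fibroblast markers (26.0 to 38.2 in 979F, 15.9 to 29.9 in 981E1/4/5) overlapped in part, and those of the pluripotent and neural markers did not overlap. The part of these in the result was not tested. The 7 genes were Egr1, Egr2, Fos, Fosb, Jun, Ccn1 and Ccn2.

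Egr2, a zinc-finger transcription factor whose upstream windows are shown above, was at -6.88, -5.04 and -5.15 in 979F1, 979F2 and 979F3 and at -1.84, -0.63 and -0.32 in 981E1, 981E4 and 981E5. It was detected above background on all 3 arrays of 981E1/4/5 and on none of 979F. By the bound defined under the processing of the data, it was at least 17.0-fold higher in 981E1/4/5. The bound leaves out the spread between clones. The measured log2 difference of Egr2 was -4.76 (SE 0.63, adjusted p = 0.044), and with normexp it was -2.11. Its relative Egr1 was at 0.36, 0.28 and 0.10 in 979F and at 2.36, 3.00 and 2.61 in 981E1/4/5, a log2 difference of -2.41 (SE 0.19, adjusted p = 0.0213). For both genes the clones of the series did not overlap, as was the case at every called probe. Fos, a subunit of the AP-1 transcription factor, was at -3.04, -2.90 and -2.88 in 979F and at -1.23, -1.07 and -1.42 in 981E1/4/5, a difference of -1.70 (SE 0.14, adjusted p = 0.0213). Fosb differed by -1.80 (SE 0.23, adjusted p = 0.0414) and Jun, the partner of these proteins in AP-1, by -1.08 (SE 0.13, adjusted p = 0.0384). No clone of 979F reached the range of 981E1/4/5 for any of these AP-1 genes, which again holds for every called probe.

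Ccn1 (formerly Cyr61) and Ccn2 (formerly Ctgf), secreted matrix proteins that respond to SRF and YAP, were lower as well. Ccn1 was at 1.44, 1.81 and 1.76 in 979F and at 3.60, 3.78 and 3.96 in 981E1/4/5, a difference of -2.11 (SE 0.16, adjusted p = 0.0202). Ccn2 was at 3.29, 3.63 and 3.56 in 979F and at 4.85, 4.93 and 5.22 in 981E1/4/5, a difference of -1.51 (SE 0.16, adjusted p = 0.0339). These are strongly expressed genes, so neither series was near background. Other members of the list were not called. Atf3 had a difference of -2.24 (SE 0.53, adjusted p = 0.109), Junb of -0.60 (adjusted p = 0.169), Ier2 of -0.35 (adjusted p = 0.39) and Dusp1, a phosphatase induced by the same stimuli, of -0.05 (adjusted p = 0.882). Srf itself, chosen after its values were seen, had differences of -0.73 (adjusted p = 0.0798) and -0.19 (adjusted p = 0.625) at its probes.

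Quantile normalization lost the call of Egr2 and normexp that of Fosb. The fit over all 12 clones called 5 of the 7, without Fos and Fosb (adjusted p = 0.364 and 0.179). In that fit the wild-type clone 967B4 was at 2.65 for Fos, 0.29 for Fosb and 3.74 for Egr1, where the 967B means were -0.09, -1.70 and 2.54. With 1 of the 6 clones left out of that fit, 2 to 5 of the 7 were called. Egr2 and Ccn1 were called in all 6 such fits, Ccn2 in 2, Egr1 and Jun in 1 each, and Fos and Fosb in none. In the fits over 5 clones, 1 of the 7 genes was called without 981E5 and none with any other clone left out.

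**Figure D2:**
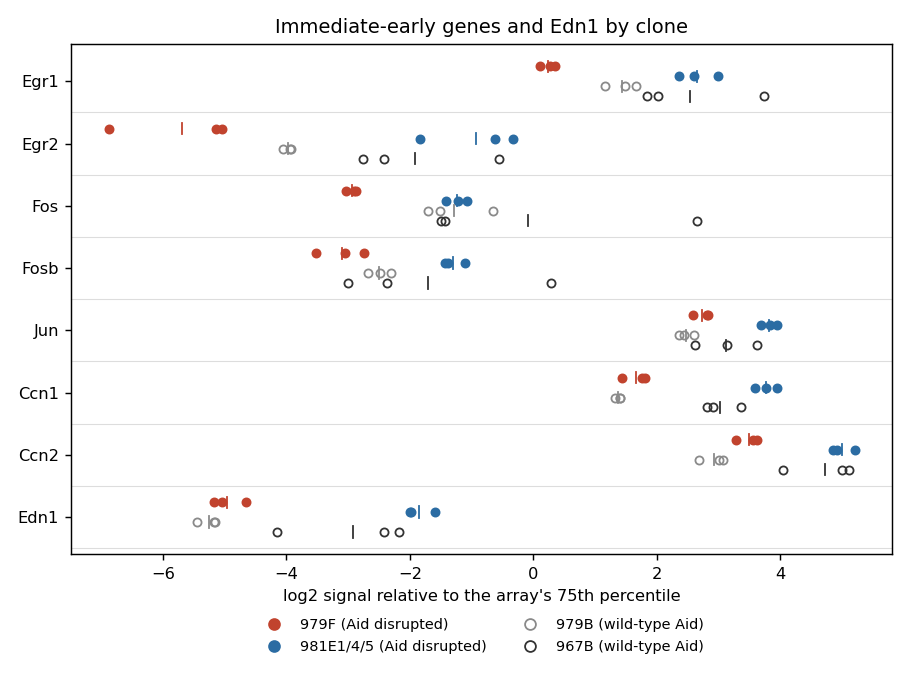
Log2 signal relative to the array's 75th percentile (x axis) of the 7 called immediate-early genes and of Edn1 (rows), with 1 point per clone and a short line at the mean of each series. The filled points of 979F (red) lie to the left of those of 981E1/4/5 (blue) in every row, and the open points are the wild-type series, with 967B4 as the point at 2.65 for Fos.

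A few genes of secreted products were called lower in 979F as well, while others described below were called higher. Edn1, which encodes the peptide endothelin, was at -5.18, -4.66 and -5.04 in 979F and at -1.99, -1.59 and -2.00 in 981E1/4/5, a log2 difference of -3.10 (SE 0.20, adjusted p = 0.0163). Bmp7, a ligand of the TGF-beta family, was at 0.02, -0.64 and -0.37 in 979F and at 1.75, 1.62 and 2.45 in 981E1/4/5, a difference of -2.27 (SE 0.28, adjusted p = 0.0394), and was the only called gene of the 23 on the Wnt and TGF-beta list. Fgfbp1, a carrier that releases fibroblast growth factors from the matrix, was at -1.30, -1.27 and -2.04 in 979F and at 0.61, 0.44 and 0.75 in 981E1/4/5, a difference of -2.14 (SE 0.24, adjusted p = 0.0364), and was the only call among the 24 probes of the list of transcripts associated with ES cells. For each of these the lowest clone of 981E1/4/5 lay above the highest of 979F. Such a lack of overlap held for all 424 called probes and for 26.3% of all probes. Chosen after their values were seen, Nppb, a natriuretic peptide, differed by -2.56 (SE 0.18, adjusted p = 0.0193), and Thbs1, a secreted matrix glycoprotein, by -1.88 (SE 0.18, adjusted p = 0.0281).

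The zinc exporter Slc30a1, whose promoter window with the metal response element core is shown above, was at -0.07, 0.12 and -0.17 in 979F and at 2.38, 1.94 and 2.70 in 981E1/4/5, a difference of -2.38 (SE 0.22, adjusted p = 0.0271). The metallothioneins Mt1 and Mt2, small metal-binding proteins, were measured for comparison. Mt1 was at 7.20, 7.61 and 7.16 in 979F and at 8.61, 8.33 and 8.91 in 981E1/4/5, and its difference of -1.30 (SE 0.21, adjusted p = 0.0581) was not called. Mt2 had a difference of -0.80 (SE 0.19, adjusted p = 0.108). Slc30a1 was called in all 6 fits over 11 clones, in each of which 1 clone was left out, and in none of the fits over 5 clones. The 20 probes of the list of surface transporters held no other call.

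Of the 18 naive and core pluripotency genes, with 25 probes, 2 were called lower in 979F and none higher, where 0.438% of all probes were called lower. Tbx3, a transcription factor of the naive state, was at 2.54, 2.41 and 2.59 in 979F and at 4.08, 4.46 and 3.86 in 981E1/4/5, a difference of -1.62 (SE 0.18, adjusted p = 0.0364). Nr5a2, a nuclear receptor that binds the Oct3/4 promoter, was at 2.42, 2.11 and 1.91 in 979F and at 4.01, 3.46 and 3.53 in 981E1/4/5, a difference of -1.52 (SE 0.21, adjusted p = 0.0477). At an unadjusted p under 0.05 in limma's fit, 9 of the 25 probes were lower and 1 higher, as were 5324 and 5149 of all 55681 probes. Nanog, Pou5f1 and other genes of the pluripotent state were not called. Nanog had a difference of -0.38 (SE 0.25, adjusted p = 0.495), Pou5f1 (Oct3/4) of 0.24 (SE 0.19, adjusted p = 0.596), Eras of 0.15 (adjusted p = 0.83), Dppa5a of -0.19 (adjusted p = 0.464) and Khdc3 of 0.53 (adjusted p = 0.407). The 7 probes of Gapdh lay between -0.11 and -0.01. Tbx3 was called in all 6 fits over 11 clones and Nr5a2 in 4, and neither was called in any fit over 5 clones.

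Several genes were seen in 1 series and not in the other. Among those higher in 979F, Arsk, a lysosomal sulfatase, was at -3.29, -3.56 and -3.18 in 979F and at -6.80, -7.18 and -6.94 in 981E1/4/5, where it was not well above background on any array, and it was at least 4.02-fold higher (adjusted p = 0.00645). The wild-type series were at means of -3.31 (979B) and -3.06 (967B), so 981E1/4/5 was the series that stood apart. S100z, a calcium-binding protein, was at -4.02, -3.67 and -3.82 in 979F and at -6.98, -7.17 and -6.95 in 981E1/4/5 (at least 2.85-fold, adjusted p = 0.00645), again with wild-type means close to 979F. Asb14, an ankyrin repeat protein with a SOCS box, was at -3.60, -3.87 and -3.96 in 979F and at -7.16, -7.33 and -7.09 in 981E1/4/5 (at least 2.90-fold, adjusted p = 0.00645). In the wild type, 979B was at -2.98 and 967B at -6.89, so Asb14 was present in 979F and 979B and near the floor in the others.

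Cldn5, a tight junction protein best known from endothelium, was at 0.26, 0.39 and 0.44 in 979F and at -2.46, -2.59 and -3.35 in 981E1/4/5, an 8.95-fold difference (log2 3.16, SE 0.25, adjusted p = 0.0213). Crisp3 and its neighbour on chromosome 17, Crisp1, encode cysteine-rich secretory proteins known from the male reproductive tract. Crisp3 was at 1.69, 1.96 and 1.71 in 979F and at -0.44, -0.58 and -0.71 in 981E1/4/5, a difference of 2.36 (SE 0.14, adjusted p = 0.011). Crisp1 was at -0.26, -0.23 and -0.37 in 979F and at -2.56, -2.47 and -2.41 in 981E1/4/5, a difference of 2.19 (SE 0.11, adjusted p = 0.00772). For both Crisp genes the clones within a series lay far closer to each other than to the other series. Adam23, an adhesion protein of the ADAM family, differed by 1.77 (SE 0.13, adjusted p = 0.0195), with 979F at 2.12 to 2.14 in its 3 clones.

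Of the other genes named for a large rise, Atp13a4 was at least 4.10-fold, Gm3893 at least 3.73-fold, Il10 (an anti-inflammatory cytokine) at least 2.30-fold and Fn3k (a kinase that removes sugar adducts from proteins) at least 1.93-fold higher in 979F. The log2 differences were 2.29 for 1500009C09Rik, 2.13 for Ankrd34a, 1.73 for Tmem254a and 1.71 for Pnp2, a purine nucleoside phosphorylase. The adjusted p of these 8 genes lay between 0.0195 and 0.0462. Atp13a4 and Pnp2 were called in none of the 6 fits over 11 clones. Normexp, which adds an offset of 50 intensity units to every signal, lost the calls of 7 genes higher in 979F, with log2 differences of 0.75 for Arsk, 0.72 for Atp13a4, 0.69 for Asb14, 0.62 for Gm3893, 0.55 for S100z, 0.39 for Il10 and 0.34 for Fn3k.

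Among the genes lower in 979F, Gbp2b encodes an interferon-inducible GTPase. Its probe A_55_P2097219 was at -7.07, -6.94 and -7.22 in 979F and at -2.36, -2.36 and -2.46 in 981E1/4/5, at least 6.20-fold higher in 981E1/4/5 (adjusted p = 0.00136), and it was called in all 6 fits that left out 1 of the 6 clones. Its other probe (A_51_P398766) was at least 4.77-fold higher in 981E1/4/5 (adjusted p = 0.00844). In both wild-type series it was near the floor, with means of -7.05 and -7.03, so that Gbp2b was seen in 981E1/4/5 and in no other series. The neighbouring Gbp2 differed by -1.11 (SE 0.13, adjusted p = 0.0382) and was called in none of the fits over 11 clones. The interferon-inducible list, with 39 probes, held no other call, and at an unadjusted p under 0.05 in limma's fit 4 of its probes were higher and 5 lower.

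Slc25a18, a mitochondrial glutamate carrier, was at -7.30, -7.15 and -7.44 in 979F and at -4.35, -3.64 and -2.77 in 981E1/4/5 (at least 2.71-fold, adjusted p = 0.0339). Ccnb1ip1, a ubiquitin ligase of meiotic crossing over, was at -2.51, -2.46 and -2.39 in 979F and at 0.39, 0.43 and 0.10 in 981E1/4/5, a difference of -2.76 (SE 0.13, adjusted p = 0.00703). For both genes 979B was close to 979F (-6.91 and -2.61) and 967B close to 981E1/4/5 or above it (-3.87 and 1.39). Wdr64, a WD repeat protein detected on 1 array of 979F, was at -4.80, -6.15 and -5.69 in 979F and at -1.94, -2.04 and -1.44 in 981E1/4/5, a difference of -3.74 (SE 0.37, adjusted p = 0.0302). Both wild-type series (means of -2.40 and -2.46) lay nearer 981E1/4/5, so here 979F stood apart.

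The other genes named for a large fall were Gm5458 (-3.73), Fam25c (-2.92) and D830030K20Rik (-2.82), and, with bounds, Gm20867 on the Y chromosome (at least 2.55-fold), Platr8 (at least 3.96-fold), 4833428L15Rik (at least 2.53-fold) and the phospholipase Pla2g4c (at least 6.98-fold). Their adjusted p lay between 0.0302 and 0.0445. Gm20867 and Platr8 were called in none of the fits over 11 clones. With normexp the log2 differences were -0.85 for Slc25a18, -0.82 for Platr8, -0.79 for Gm20867 and -0.63 for 4833428L15Rik, none of them called, and -1.34 and -1.07 at the called probes of Gbp2b.

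**Figure D3:**
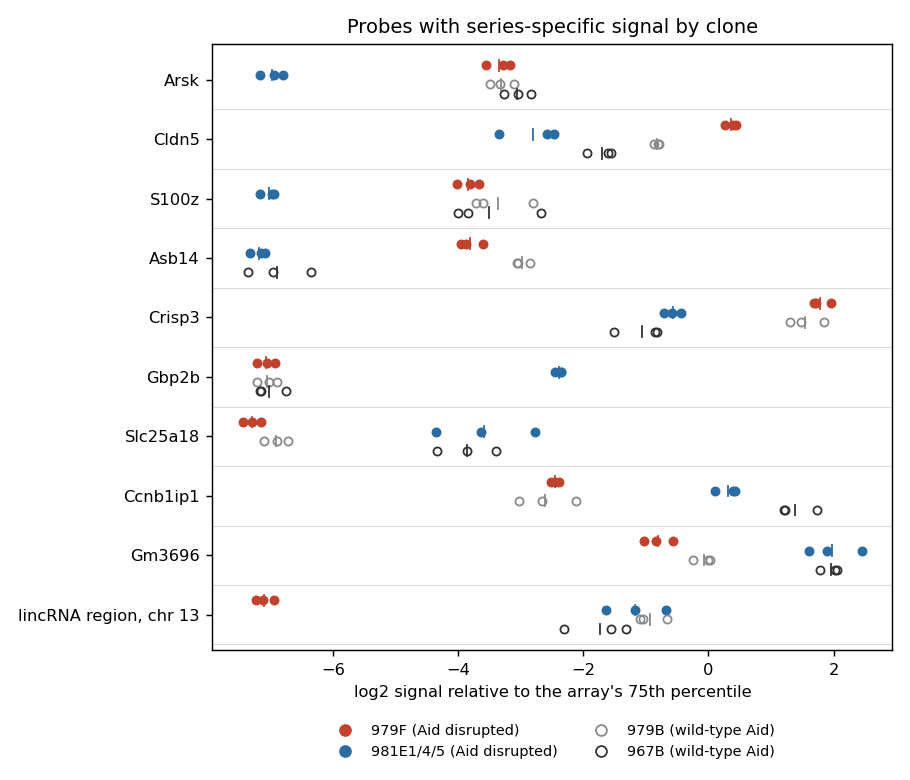
Log2 signal relative to the array's 75th percentile (x axis) for 10 probes with large differences (rows), with 1 point per clone and a short line at the mean of each series. Gbp2b is at the floor near -7 in every series but 981E1/4/5, Arsk and S100z are at the floor in 981E1/4/5 alone, and the probe drawn for the lincRNA region on chromosome 13 is at the floor in 979F alone.

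The lincRNA regions gave the widest differences on the scale used here, at probes near the floor in 1 series. Of 4607 regions on the array, 93 had a called probe, with 67 of their probes higher and 58 lower in 979F, and 0.773% of the lincRNA probes were called, against 0.786% of the gene probes. The region at chr13:31736054-31781679 (mm9, reverse strand) had 8 probes, of which 5 were called lower in 979F. Its probe A_30_P01021308 was at -7.12, -6.95 and -7.23 in 979F and at -1.64, -1.18 and -0.68 in 981E1/4/5 (at least 14.5-fold, adjusted p = 0.00645). A_30_P01030974 was at least 23-fold (adjusted p = 0.0261) and A_30_P01027538 at least 9.69-fold higher in 981E1/4/5 (adjusted p = 0.0339). With normexp the log2 differences of these probes were -2.03, -2.45 and -1.46 in that order, where Fam25c was at -2.84. Both wild-type series had this transcript, with means of -0.94 and -1.73 at A_30_P01021308, so at this probe the signal was near the floor in 979F alone. Another probe of the region, A_30_P01025810, was well above background on 2 arrays of 979F, and its difference of -0.90 (adjusted p = 0.131) was not called.

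The region at chr8:124364048-124365705 (mm9, forward strand) went the other way. Its probe A_30_P01031402 was at -1.44, -1.45 and -1.52 in 979F and at -6.29, -6.99 and -5.56 in 981E1/4/5, at least 14.7-fold higher in 979F (adjusted p = 0.0195), and A_30_P01021047 differed by 3.06 (SE 0.29, adjusted p = 0.0296). Here 979B (mean -1.54) was close to 979F and 967B (mean -5.78) close to 981E1/4/5. It lies on the chromosome that was raised in clone 981E5, and 981E5 was low with the rest of 981E1/4/5. The region at chr16:7947710-7948066 (mm9, reverse strand) differed by 2.21 (SE 0.24, adjusted p = 0.0354), with 979B at -1.99 and 967B at -4.73, and it was not called with normexp (0.89).

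Called genes lay side by side in places. In the RefSeq order of genes, 26 of the 199 called genes neighboured another gene called in the same direction, in 9 runs. The longest run, on chromosome 14, held 9 genes lower in 979F, namely Gm10413, Gm3002, Gm5796, Gm3264, 4930555G01Rik, Gm3317, Gm10406, Gm3696 and Gm5797. These are predicted genes of a family of near-identical copies, as the promoters of Gm10413 and Gm5797 above show, and which copy a probe measures is uncertain. Of their 16 probes 13 were called, with log2 differences between -2.79 and -1.72. Gm3696 was at -0.57, -1.02 and -0.84 in 979F and at 1.89, 1.60 and 2.45 in 981E1/4/5 (SE 0.25, adjusted p = 0.0268). Gm10413 was at -1.71, -1.80 and -1.72 in 979F and at 0.78, 0.65 and 1.42 in 981E1/4/5, a difference of -2.70 (SE 0.22, adjusted p = 0.0222). In the wild type the same probes were close to 979F in 979B and close to 981E1/4/5 in 967B, with means of -0.08 and 1.95 for Gm3696 and of -1.56 and 1.02 for Gm10413. All 13 probes were called in each of the 6 fits over 11 clones, and of the fits over 5 clones the one without 981E5 called 10 of them and the others none.

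Chromosome 14 as a whole had 6 genes called higher and 17 lower, and 3.07% of its gene probes were called, against 0.345% to 1.20% on the other autosomes and on X. Of its called probes, 13 were those of the block of near-identical copies. On Y 3 of 35 gene probes (8.57%) were called. Besides the block of copies, chromosome 14 held Asb14, Ccnb1ip1, Fam25c, Pnp2, Gm5458 and the adjacent pair Plac9a and Tmem254a. The other runs were Fxyd2, 4833428L15Rik and Dscaml1 on chromosome 9, Gm2897 and D830030K20Rik on chromosome 14, Crisp3 and Crisp1 on 17, Mbd5 and Epc2 on 2, Gbp2b and Gbp2 on 3, Gm10046 and Zfp59 on 7, and Gm20822 and Gm20877 on Y. The median difference over the detected probes of a chromosome was -0.12 on chromosome 8 and between -0.02 and 0.08 on the other autosomes and X. Without chromosomes 8 and Y, on which single clones stood apart, 404 of the 424 probes remained, 170 higher and 234 lower.

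**Figure D4:**
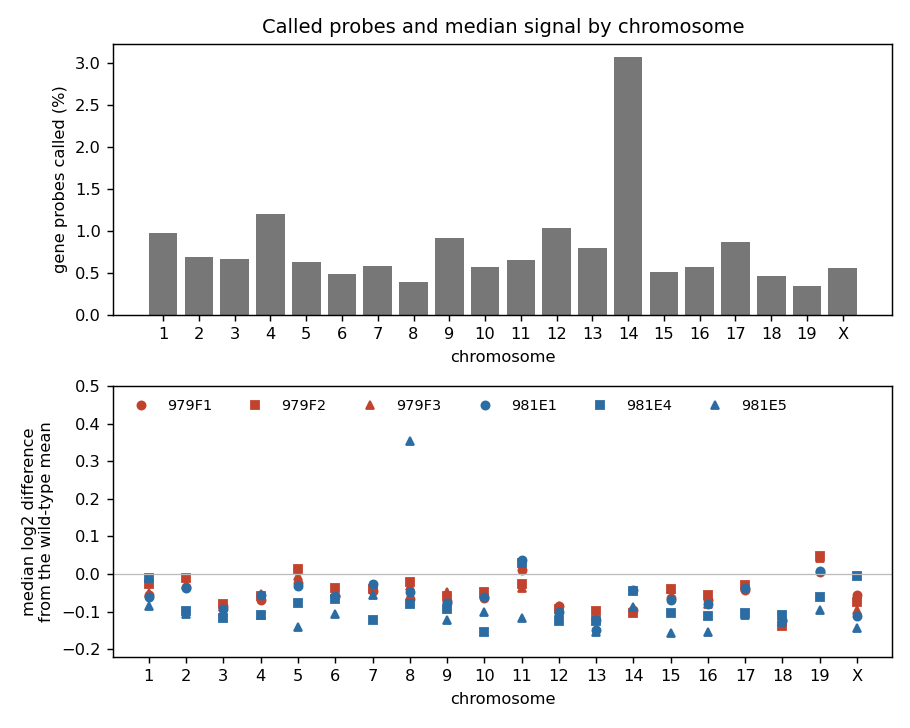
Upper panel, share of the gene probes of each chromosome that were called (%). Lower panel, median log2 difference of each Aid-disrupted clone from the mean of the wild-type clones over the detected probes of the chromosome. Of the chromosomes drawn, 14 has the highest share in the upper panel at 3.07%, with 13 of its called probes from the block of near-identical copies. The triangle of clone 981E5 stands out in the lower panel on chromosome 8 at 0.35. Chromosome Y, with 8.57% of 35 gene probes called, is not drawn.

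Several Y-linked genes were near the floor in clone 979F3. Ddx3y, an RNA helicase, was at 1.73, 1.19 and -7.24 in 979F1, 979F2 and 979F3 and at 2.46, 1.45 and 1.25 in 981E1/4/5. Eif2s3y, a translation initiation factor, was at 3.83, 3.56 and -7.40 in 979F and at 4.58, 3.77 and 3.92 in 981E1/4/5, a difference of -4.09 with an SE of 3.04 (adjusted p = 0.554). None of the 11 probes of the Y-linked list was called in limma's fit, and 1 was lower at an unadjusted p under 0.05. Zfy2, a zinc-finger protein, was at -4.38, 0.17 and -7.16 in 979F and at -3.26, -3.55 and -5.18 in 981E1/4/5, so it also varied between the other clones. Of the genes on this chromosome outside the list, Gm20867, Gm20822 and Gm20877 were called lower in 979F. Gm20867 was at -7.20, -7.21 and -7.50 in all 3 clones of 979F and at -4.02, -2.85 and -4.16 in 981E1/4/5, with wild-type means of -4.37 and -3.29.

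Genes known to differ among inbred strains held 4 called probes of 38 (10.5%, against 0.761% of all probes). Besides both probes of Gbp2b these were Pttg1, the mitotic securin, at 0.41, 0.18 and 0.14 in 979F and at -1.29, -0.90 and -1.38 in 981E1/4/5 (a difference of 1.44, SE 0.17, adjusted p = 0.0376), and Zfp607b, a zinc-finger protein, at -0.20, 0.10 and -0.39 in 979F and at 1.18, 0.91 and 1.08 in 981E1/4/5 (a difference of -1.22, SE 0.17, adjusted p = 0.0462). Apoa2, an apolipoprotein chosen after its values were seen, differed by 1.67 (SE 0.16, adjusted p = 0.0281) and 1.37 (SE 0.12, adjusted p = 0.0241) at its probes. Pttg1 was called in all 6 fits over 11 clones and Zfp607b in 5, and neither was called in any fit over 5 clones. Zfp607b was at wild-type means of -2.03 (979B) and -2.41 (967B), below every Aid-disrupted clone. The list was chosen with earlier results of these data known, so its share of calls is not independent of them.

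Other lists held no call in limma's fit. Their counts at an unadjusted p under 0.05 stand beside 5149 probes higher and 5324 lower of all 55681. Of 28 fibroblast probes 10 were higher in 979F and 2 lower (median log2 difference of the detected probes 0.65, against 0.01 over all detected probes). Of 29 germline probes none was higher and 12 were lower (median -0.52), of 53 glycolysis and hypoxia probes 1 was higher and 17 lower (median -0.30), and of 30 stress and p53 probes none was higher and 9 were lower (median -0.38). Of 9 probes of the imprinted Dlk1-Dio3 cluster none was higher and 4 were lower. Meg3, its maternally expressed long RNA, was at -2.47, -3.16 and -5.35 in 979F and at 0.31, 2.85 and -1.58 in 981E1/4/5 (A_51_P455997), and this difference of -4.19 had an SE of 1.28 (adjusted p = 0.165). Within both series the clones of Meg3 lay several log2 units apart. Neural ectoderm probes (18) had 5 higher and 1 lower, trophoblast probes (13) none higher and 4 lower, primed epiblast probes (20) 3 and 4, endoderm probes (23) none and 2, imprinted genes outside that cluster (56 probes) 9 and 5, genes of the 2-cell-like state (24 probes) 1 and 2, and cholesterol and lipoprotein genes (23 probes) 3 and 3. None of the 25 probes of H3K9 and H3K27 methylation enzymes was called, with 3 higher and 5 lower, none of 19 probes of DNA methyltransferases and cofactors, with 6 and 2, and none of 23 probes of Tet and base excision genes, with 4 and 1 at an unadjusted p under 0.05.

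The wild-type series 979B and 967B share no array with the comparison and gave a contrast between a pair of wild-type series. It is not the same contrast in the other genotype, since 967B and 981E1/4/5 are different series. By the study's numbering of its reprogramming experiments, the names would place 979F and 979B in the same one. The number of 981E1/4/5 is not in that supplementary list. Between 979B and 967B, 44 probes were called (0.079%), and 16 of these were among the 424. Of the 424 probes, 352 (83.0%) had the same sign in 979B minus 967B as in 979F minus 981E1/4/5, where 57.4% of all probes did. At an unadjusted p under 0.05 in the wild-type pair, 176 of the 424 moved the same way and 11 the opposite way. The wild-type means divided the called probes into 4 kinds. For 197 of them (46.5%, against 23.4% of all probes) 979B was nearer 979F and 967B nearer 981E1/4/5, as for Asb14, Crisp3, Ccnb1ip1 and the chromosome 14 block. Both wild-type series were nearer 979F for 118 (27.8%, against 29.0% of all probes), as for Arsk and Gbp2b, and both were nearer 981E1/4/5 for 89 (21.0%, against 36.1%), as for Wdr64. The reverse pattern was found for 20 (4.72%, against 11.5%), among them Atp13a4. The mean of 979B was nearer that of 979F for 315 of the 424 probes, the first 2 kinds together, which made up 23.4% and 29.0% of all probes. Series 979B shared a slide with 981E1/4/5, and the part of the slide in these values was not tested.

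A direct test of 979F minus 981E1/4/5 against 979B minus 967B, in limma's fit of all 12 clones, was passed by 59 probes (0.106%), and 20 of these were among the 424. Any of the 4 series can make a probe pass, and the genotype and the series cannot be told apart in it. They included Arsk, where the Aid-disrupted difference exceeded the wild-type one by 3.88 (adjusted p = 0.000218), Cldn5, by 2.29 (adjusted p = 0.0284), both probes of Gbp2b, at -4.66 and -4.21, and 3 probes of the lincRNA region on chromosome 13, at -6.73, -6.60 and -4.80. For the 7 immediate-early genes the test was not passed. The difference of the differences was -2.70 for Egr2 (adjusted p = 0.374), -1.31 for Egr1 (adjusted p = 0.516) and -0.45 for Ccn1 (adjusted p = 0.577). The log2 difference 979B minus 967B was -2.06, -1.10 and -1.65 for these genes, and none of these was called. Leaving out single clones moved the count of 59 to between 14 (without 979F3) and 164 (without 967B4).

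**Figure D5:**
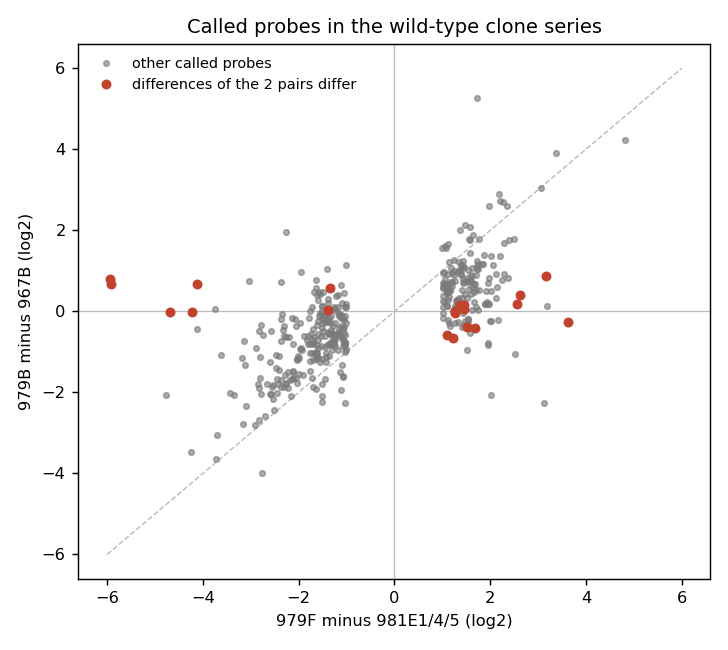
Log2 difference 979B minus 967B (y axis) against 979F minus 981E1/4/5 (x axis) for the 424 called probes, with 1 point per probe, a dashed line where both are equal and red points for the 20 probes whose differences themselves differed. Most grey points lie in the quadrants of equal sign, and the red points lie close to the horizontal line at 0 or across it.

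Set beside the other pairs of series, the 424 calls between the Aid-disrupted series were within the range of their counts of calls. At the same thresholds 690 probes (1.24%) were called between 981E1/4/5 and 979B, 231 (0.415%) between 979F and 979B, 200 (0.359%) between 979F and 967B and 5 (0.00898%) between 981E1/4/5 and 967B. Counts of calls also depend on the spread between the clones of each series. Whatever their p, 4061 probes differed over 2-fold between the Aid-disrupted series, the most of any pair. The counts were 4000 between 979F and 967B, 3830 between 981E1/4/5 and 979B and 3434 between 979F and 979B. They were 2654 between 979B and 967B and 2606 between 981E1/4/5 and 967B. Pairs that share a series share its clones, so these counts are not independent of each other.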

How the data were processed

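RNA of each clone, isolated with TRIzol, was labelled with Cy3 and hybridised to 1 Agilent mouse array with probes annotated on mm9. Per the file headers, the deposited intensities were made by Feature Extraction, which subtracts background and detrends each array without scaling arrays to each other. The log2 values deposited by the authors were scaled in GeneSpring GX to the 75th percentile of each array. Here the log2 of the processed intensity, averaged over the spots of a probe without control and outlier spots, was centred on the 75th percentile of the array. These values differed from the deposited log2 values by a median of at most 0.00678 per array. A probe counted as well above background on an array where at least 0.5 of its spots carried the scanner's flag. No spot was saturated.

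Series were compared with limma 3.58.1 in R 4.3.3 (moderated test, Benjamini-Hochberg adjustment over 55681 probes, no filter), and calls needed a log2 difference over 1 with an adjusted p under 0.05. Distances were tested in Python 3.11.15 with numpy 2.4.6. The limma fits were tested on simulated data with known changes. For probes that 1 series never showed above background, "at least" gives the mean of the other series over a floor, which on each array is the lowest signal well above background, or the probe's signal if that was larger. Such bounds depend on that lowest signal and leave out the spread between clones, so they are not lower confidence limits. For Pla2g4c the bound of 6.98-fold equals the measured difference. The number of arrays limits the precision. Normexp, run as an alternative, used median spot signals, since the deposited intensities held no mean spot signals.

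The members and lists were chosen with earlier results of these data known. Named were the 15 gene probes with the largest difference in each direction among called probes seen on every array of the brighter series, 1 per symbol, 3 lincRNA probes in each direction by the same rule, every called probe of the gene lists, Y-linked genes, and Nanog, Pou5f1, Eras, Dppa5a, Khdc3 and Gapdh. A gene that this rule also names is not reported here. Genes of the neighbouring runs, Meg3 and uncalled list members were named after their values were seen. Of 28685 probes with a RefSeq accession, 27235 matched the RefSeq table, and 6 older symbols were updated. Promoters are those of GRCm38.p6, from which no coordinate was carried over to mm9.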

Additional observations from a re-analysis of the deposited data

Results flagged for a closer look

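The difference 979F minus 981E1/4/5 differed from 979B minus 967B for 59 probes in the fit of all 12 clones (limma). The pairs are made of different series, so genotype and series cannot be told apart in this test. Among the named probes, Arsk gave a difference of these differences of 3.88 and Cldn5 of 2.29 on the log2 scale. The probes of Gbp2b gave -4.66 and -4.21, and 3 probes of the lincRNA region on chromosome 13 gave -6.73, -6.60 and -4.80. In 979B minus 967B the same probes lay near 0 (Arsk -0.26, Gbp2b -0.02 and -0.01) or had the opposite sign (the lincRNA region, 0.79, 0.68 and 0.67), and Cldn5 was at 0.87. Groups of 3 clones were too small for a test of single outlying clones.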

How the results depend on the processing

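All 424 called probes kept their sign in every setting that tested them. Leaving out or averaging clones could not change a sign, since the series did not overlap at these probes. Filters and other estimates of the spread used the same series means. The number called moved with the filter, the estimate of the spread and each clone. Instead of 424 (180 higher, 244 lower), 1160 probes (414 and 746) were called with a filter on detection in a series, 900 (306 and 594) with detection on all 6 arrays, 858 (302 and 556) with an intensity trend and robust estimation, 959 (347 and 612) with all 12 clones and 27 (16 and 11) with the methods' t-test on the same values after Benjamini-Hochberg adjustment. A fold change over 2 without a test gave 4061. Averaging 981E1 with 981E4 left 1 call (0 higher and 1 lower), and leaving out 1 clone gave 1 to 94 calls, 0 to 32 higher and 1 to 62 lower, the most without 981E5. In the fit over 12 clones the count was 245 to 1138 with 1 clone left out. The count for the difference of differences was 100 with the filter on detection, and 14 to 164 with 1 clone left out. Quantile normalization (433), the percentile over detected probes (428), normexp (457, of which 161 shared) and the authors' log2 values (418) gave counts near the main one. Of the 52 calls given by the rule for named genes, 48, 52, 38 and 51 were kept in these. The distance between the series stayed above that within them, by 22.1 to 35.9. The causes of these changes were not tested. With 3 clones against 3 no permutation test could pass 0.05. No paired analysis was possible because the replicate numbers are clone names and the compared series share only the number 1.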

Other observations

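Some further pairs of related genes were called in the same direction, and they were chosen after their values were seen. Abcb1a and Abcb4, transporters of the multidrug resistance family on chromosome 5, were lower in 979F by log2 differences of -1.07 (SE 0.13, adjusted p = 0.0382) and -1.01 (SE 0.13, adjusted p = 0.0419). Tcl1b1 and Tcl1b4, members of a cluster expressed in oocytes and early embryos, differed by -1.62 (SE 0.22, adjusted p = 0.0445) and -1.35 (SE 0.16, adjusted p = 0.0384) at the probes called, and the other probes of Tcl1b4 had differences of -0.14 and 0.01. Smok2a and Smok4a, sperm motility kinases on chromosome 17, were each not well above background in 979F at the probe called and were at least 2.31-fold (adjusted p = 0.0417) and 2.25-fold (adjusted p = 0.037) higher in 981E1/4/5. The other probe of Smok4a was well above background on all 6 arrays, and its difference of -1.81 (SE 0.28, adjusted p = 0.0555) was not called. Mmrn2, a multimerin on chromosome 14, differed by -2.54 (SE 0.21, adjusted p = 0.0241), with 979B at -0.43 and 967B at 1.73.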
